A study of Mus musculus with 10 samples.

Results

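Chromatin accessibility was compared between the iNKT2 and iNKT1 subsets of invariant natural killer T (iNKT) cells within SKG mice. The comparison rests on 5 of the 10 libraries of the series, 3 of SKG iNKT2 and 2 of SKG iNKT1, which were taken by their labels, and all 94823 accessible regions entered it. SKG mice carry a hypomorphic point mutation of Zap70 on the BALB/c background, and the other 5 libraries came from BALB/c mice with intact Zap70 (iNKT1, n = 2; iNKT2, n = 3). All mice were 8 to 10 weeks old by the study's methods, and thymic iNKT cells were sorted as CD27+ CD122+ (iNKT1) or CD27+ CD122- (iNKT2). CD122 is the product of Il2rb, so differences at that gene follow the gate. ATAC-seq was used, in which a transposase inserts adapters into open DNA, and each value is the number of insertions in a region, given below as CPM, the count scaled to the size of the library. The labels do not say whether libraries came from separate mice, so p-values measure the spread between libraries. The SKG mutation changes a single residue, and insertions at Zap70 cannot check the genotype labels.

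iNKT cells carry a semi-invariant T cell receptor that recognises lipids on CD1d, and they branch in the thymus into subsets with different effector programs. iNKT1 cells express T-bet and produce IFN-γ and cytotoxic molecules, whereas iNKT2 cells keep high levels of the zinc finger factor PLZF and produce IL-4. Another subset, iNKT17, produces IL-17. ZAP-70 is the kinase that relays the signal of the T cell receptor, and its mutation in SKG mice weakens that signal.

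The windows shown here carry the main results. Each is 300 bases of the forward strand of the GRCm38 (mm10) genome, and letters that match any of the 8 motifs spelled out below are in capitals. Those at Cxcr3 and Gzma were lower in SKG iNKT2, those at Stxbp4 and Il17a were higher there, and the last 3, in an Ets1 intron, in the Trb locus and upstream of Arg1, differed more between the subsets in SKG than in BALB/c. The windows lie at chrX:101737338-101737637 (Cxcr3 upstream), chr13:113104787-113105086 (Gzma upstream), chr11:90548594-90548893 (Stxbp4 internal start), chr1:20740533-20740832 (Il17a downstream), chr9:32743744-32744043 (Ets1 intron), chr6:41118433-41118732 (Trb locus) and chr10:24953948-24954247 (Arg1 upstream).
Cxcr3 upstream: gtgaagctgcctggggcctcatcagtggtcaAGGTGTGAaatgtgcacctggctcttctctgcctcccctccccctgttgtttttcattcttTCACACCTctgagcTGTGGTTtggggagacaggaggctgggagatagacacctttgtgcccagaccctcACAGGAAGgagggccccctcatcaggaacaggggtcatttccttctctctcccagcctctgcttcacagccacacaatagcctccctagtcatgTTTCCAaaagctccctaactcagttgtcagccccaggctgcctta
Gzma upstream: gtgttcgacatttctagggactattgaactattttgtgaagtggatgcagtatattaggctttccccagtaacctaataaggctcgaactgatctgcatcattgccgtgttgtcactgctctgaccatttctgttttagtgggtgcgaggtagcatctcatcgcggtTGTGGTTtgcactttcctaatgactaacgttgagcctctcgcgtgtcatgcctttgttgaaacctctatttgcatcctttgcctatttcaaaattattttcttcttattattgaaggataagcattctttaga
Stxbp4 internal start: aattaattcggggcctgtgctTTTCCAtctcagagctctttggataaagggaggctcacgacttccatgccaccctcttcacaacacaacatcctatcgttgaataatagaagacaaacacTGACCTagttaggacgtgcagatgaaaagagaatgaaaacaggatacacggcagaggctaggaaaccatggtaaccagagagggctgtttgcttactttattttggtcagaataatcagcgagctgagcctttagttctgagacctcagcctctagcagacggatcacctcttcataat
Il17a downstream: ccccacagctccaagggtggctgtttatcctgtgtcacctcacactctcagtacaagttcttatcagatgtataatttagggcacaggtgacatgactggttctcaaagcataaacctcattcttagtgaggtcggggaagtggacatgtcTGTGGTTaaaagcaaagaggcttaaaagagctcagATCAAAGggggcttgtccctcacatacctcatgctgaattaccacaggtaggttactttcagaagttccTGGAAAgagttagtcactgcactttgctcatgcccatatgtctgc
Ets1 intron: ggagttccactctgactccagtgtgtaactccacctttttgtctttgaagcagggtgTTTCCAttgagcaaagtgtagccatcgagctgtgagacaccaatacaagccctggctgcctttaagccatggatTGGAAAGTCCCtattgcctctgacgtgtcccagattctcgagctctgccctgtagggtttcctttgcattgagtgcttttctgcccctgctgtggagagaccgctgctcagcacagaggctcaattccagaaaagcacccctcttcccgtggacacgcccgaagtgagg
Trb locus: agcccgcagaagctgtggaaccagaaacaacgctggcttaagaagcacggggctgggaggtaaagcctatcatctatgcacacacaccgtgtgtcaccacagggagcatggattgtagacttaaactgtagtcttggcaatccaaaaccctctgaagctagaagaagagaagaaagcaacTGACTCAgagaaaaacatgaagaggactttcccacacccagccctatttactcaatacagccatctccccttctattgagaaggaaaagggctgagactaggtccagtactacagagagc
Arg1 upstream: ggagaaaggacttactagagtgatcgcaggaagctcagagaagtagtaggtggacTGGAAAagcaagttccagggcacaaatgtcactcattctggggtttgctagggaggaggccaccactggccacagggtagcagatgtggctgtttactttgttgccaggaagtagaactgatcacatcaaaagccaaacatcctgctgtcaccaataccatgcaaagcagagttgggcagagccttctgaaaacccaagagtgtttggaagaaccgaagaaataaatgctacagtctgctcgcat

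The motifs were searched as fixed letters on both strands: T-box AGGTGTGA, RUNX TGTGGTT, ETS ACAGGAAG, TCF/LEF ATCAAAG, NFAT TGGAAA, NF-kB GGGA and TTTCC parted by 1 free base, AP-1 TGANTCA and ROR AGGTCA. An NF-kB match and an NFAT match can share bases, as they do in the Ets1 window. The Cxcr3 window held 2 T-box matches and 1 each of RUNX, ETS and NFAT. The Gzma window held 1 RUNX match, the Il17a window 1 each of RUNX, TCF/LEF and NFAT, and the Stxbp4 window, at an internal annotated start inside the gene, 1 each of ROR and NFAT. The Ets1 intron held 1 NF-kB match and 2 NFAT matches, the Trb window 1 AP-1 match and the Arg1 window 1 NFAT match. T-box letters were present in 1.91% of all regions and in 1.27% of 32817 promoter windows. The corresponding shares of regions and promoters were 13.2% and 5.27% for RUNX, 9.64% and 3.57% for ETS, 5.74% and 3.73% for TCF/LEF, 23.4% and 21.4% for NFAT, 0.639% and 0.411% for NF-kB, 10.6% and 7.81% for AP-1, and 16.6% and 16.3% for ROR. A match describes letters, not binding.

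The 5 SKG libraries held 14988590 to 31087309 insertions in regions, and the whole series 14988590 to 36342635. Among the SKG iNKT2 libraries, replicate 1 stood apart: the chi-square per region was 12.2 against replicate 2 and 8.49 against replicate 3, compared with 2.59 between replicates 2 and 3 and 2.53 between the SKG iNKT1 libraries. Replicate 1 of BALB/c iNKT2 stood apart as well, at 9.98 against replicate 2 and 10.3 against replicate 3, compared with 3.32 between replicates 2 and 3. The least accessible regions were also less empty in SKG iNKT2. The 5th percentile of region values was 0.214 and 0.335 CPM per kb in SKG iNKT1 and 1.01, 0.612 and 0.674 CPM per kb in SKG iNKT2. In BALB/c this floor was 0.364 and 0.294 CPM per kb in iNKT1 and higher still in iNKT2, at 1.92, 1.51 and 1.41 CPM per kb. The part of this floor in the results below was not tested, but subtracting it from each library left 8032 regions higher and 7214 lower, an alternative added after the data were seen.

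The 2 subsets parted widely in SKG mice. A region was called where the adjusted p of edgeR's quasi-likelihood test was under 0.01 and the difference was at least 4-fold. By this rule 16253 regions were called, 17.1% of those tested; 9654 (10.2%) were higher in SKG iNKT2 and 6599 (6.96%) were lower. Regions at promoters, defined as within 1 kb of a protein-coding start, seldom differed: they made up 23.3% of all regions but 8.57% of those higher in SKG iNKT2 and 5.44% of those lower. In introns 12.3% of regions were higher and 8.23% lower, and between genes 12.1% were higher and 9.13% lower. The median distance to a protein-coding start was 10976 bp over all regions, 21281.5 bp for higher regions and 20888 bp for lower ones. The split between directions moved with scaling: 59.4% of calls were higher in the values given here, 66.0% with library totals, 52.7% with the floor subtracted, 48.5% with voom and 37.7% with quantile normalisation. The median log2 difference over all regions was 0.14 here, 0.32 with library totals and 0.08 with quantile normalisation.

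The 8 regions with the smallest adjusted p in each direction, 1 for each nearest gene, were taken among called regions whose SKG groups did not overlap. The groups did not overlap at 63593 of all 94823 regions, at 9654 of the 9654 higher ones and at 6598 of the 6599 lower ones. The chosen regions were far apart in the subsets, and most were almost closed in one of them. Among those higher in SKG iNKT2, a region beyond Zfp846, a zinc finger gene (chr9:20609511-20610305), held 0.578 and 0.706 CPM in SKG iNKT1 and 37.7, 38.9 and 39.1 CPM in SKG iNKT2. A Stxbp4 intron (chr11:90512554-90513265) held 0.128 CPM in each SKG iNKT1 library and 21.8, 33.5 and 37.5 CPM in SKG iNKT2. An intron of Chdh beside Il17rb, which encodes a receptor chain for IL-25 (chr14:30024311-30024790), held 3.47 and 3.27 CPM against 40.9, 40.8 and 41.7 CPM. In all of them the lowest SKG iNKT2 library lay several fold above the highest SKG iNKT1 library. The log2 differences were 5.90 ± 0.28 (SE), 7.85 ± 0.41 and 3.61 ± 0.18 (edgeR adjusted p 5e-09, 6.6e-09 and 5e-09).

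The other regions of this group followed the same pattern. A region beyond Sspn, which encodes a member of the dystrophin complex, held 1.41 and 1.28 CPM in SKG iNKT1 and 50.4, 45.1 and 60.3 CPM in SKG iNKT2 (log2 difference 5.26 ± 0.26). An intron of Specc1l, a cytoskeletal linker, held 0.707 and 1.35 CPM against 35.0, 37.2 and 42.1 CPM (5.2 ± 0.25). It was the region of the 8 whose subset difference was also called larger in SKG than in BALB/c, by 2.35 ± 0.32 (edgeR adjusted p 0.0014). The groups did not overlap at either region. A Nav2 intron held 0.578 and 0.513 CPM against 27.3, 38.0 and 38.6 CPM, a Vwa8 intron 0.128 and 0.385 CPM against 24.7, 27.9 and 28.1 CPM, and a region far from Gm11361 2.12 and 2.95 CPM against 36.3, 42.8 and 48.7 CPM.

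Among the regions lower in SKG iNKT2, an intron of Suclg2, which encodes a subunit of succinate-CoA ligase (chr6:95614446-95615381), held 62.8 and 63.1 CPM in SKG iNKT1 and 1.43, 0.689 and 0.944 CPM in SKG iNKT2. An intron of Cdc20b near Gzma, the gene of granzyme A (chr13:113061678-113062416), held 20.4 and 17.4 CPM against 0.178, 0.0459 and 0.0674 CPM. A region beyond Gem, which encodes a small GTPase (chr4:11720855-11722051), held 120.1 and 127 CPM against 18.6, 20.3 and 18.6 CPM. The last remained partly open in SKG iNKT2, while the first 2 were close to the floor there. Their log2 differences were -5.88 ± 0.23, -7.33 ± 0.34 and -2.68 ± 0.12 (edgeR adjusted p 3.2e-09, 5e-09 and 3.9e-09).

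The remaining lower regions lay far from starts or in introns. A region 34388 bp beyond the start of Adrb1, which encodes a beta-adrenergic receptor, held 72.1 and 75.1 CPM in SKG iNKT1 and 4.84, 4.09 and 5.6 CPM in SKG iNKT2 (log2 difference -3.94 ± 0.18). A region 372472 bp upstream of Nfe2l3, which encodes a bZIP factor, held 80.2 and 86.9 CPM against 6.12, 6.8 and 4.58 CPM (-3.82 ± 0.16). An intron of Pkp4, a plakophilin gene, held 15.7 and 14.1 CPM against 0.119, 0.184 and 0.135 CPM (-6.66 ± 0.29). In each case the groups were far apart. A region upstream of Cemip2, a hyaluronidase gene, held 13.7 and 15.4 CPM against 0.416, 0.413 and 0.337 CPM (-5.18 ± 0.24). A region 537401 bp upstream of Gm11114 held 38.2 and 35.3 CPM against 1.46, 1.38 and 0.944 CPM (-4.82 ± 0.20), and its subset difference exceeded that of BALB/c by -2.21 ± 0.26 (edgeR adjusted p 0.0007).

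**Figure D1:**
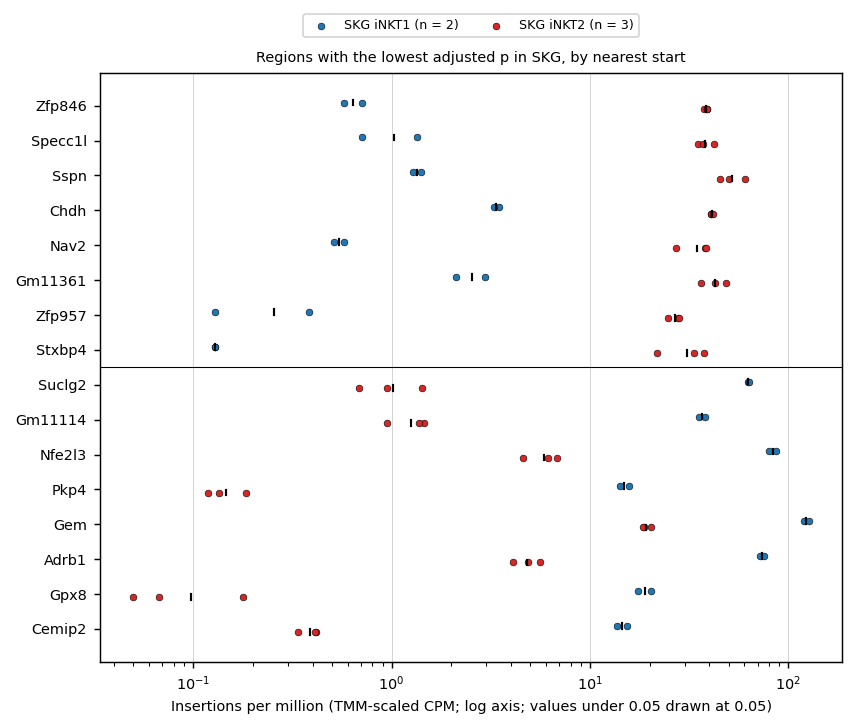
CPM per library (log axis, values under 0.05 drawn at 0.05) of the 16 regions with the smallest adjusted p, 8 higher and 8 lower in SKG iNKT2; each point is 1 library and black ticks are group means. The 16 regions were chosen among those whose SKG groups do not overlap, so the gap between the points follows from the choice. The Gem region keeps 18.6 to 20.3 CPM in SKG iNKT2.

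Genes were also ranked by their count of called regions, which can grow with the size of the window. Over all regions 10.2% were higher and 6.96% lower. Regions were assigned to a gene where they fell in its body or within 50 kb, so neighbours share regions. Many regions lower in SKG iNKT2 lay in the natural killer receptor cluster of chromosome 6. There 33 of 36 regions were lower at Klrd1, 32 of 39 at Klre1, 30 of 31 at Klrk1 and 24 of 26 at Klrc3, with none higher. These genes encode lectin-like receptors and overlap in their windows. The SLAM family genes Cd244a (22 of 32 lower) and Ly9 (20 of 30) also share a window, and Chsy1, a chondroitin synthase gene, had 22 of 51 lower. The same windows held 17 to 32 lower regions each in BALB/c.

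High counts of regions higher in SKG iNKT2 lay at Cacna1d, a calcium channel gene beside Il17rb (35 of 57 higher), and Zbtb16, which encodes PLZF (26 of 124). Others were Etv6, which encodes an ETS family repressor (22 of 36), Lclat1 (22 of 65), Il1r1, the IL-1 receptor gene (20 of 28), and Map7 (20 of 38, with 3 lower). Fgfr2, a long annotation, had 25 of 168 higher (14.9%) and 14 lower (8.33%), nearer to the shares over all regions. The count of higher regions in BALB/c was within 5 of these at each gene. Gm20388, a readthrough annotation spanning 469 regions of chromosome 8, entered both lists by its size, with 33 higher (7.04%) and 37 lower (7.89%).

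At the 4 loci that mark the subsets, most regions parted them in SKG. At Gzma 19 of 20 regions were lower in SKG iNKT2, and at Gas7, which encodes a growth arrest protein, 14 of 14 were lower. At Stxbp4 7 of 9 regions were higher, and at Hlf, which encodes a PAR bZIP factor, 4 of 7 were higher. The 4 loci were chosen with results of these data in view, and 33 of their 50 regions were lower and 11 higher.

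At Gzma the promoter region (chr13:113100819-113101228, 42 bp from the start) held 17.1 and 18.3 CPM in SKG iNKT1 and 1.28, 0.827 and 0.674 CPM in SKG iNKT2. The 2 groups did not overlap, and the log2 difference was -4.17 ± 0.23 (edgeR adjusted p 8.7e-09). BALB/c iNKT2 kept more, with 3.1 to 3.7 CPM, and the interaction, the SKG difference minus the BALB/c difference, was -2.04 and was called in 10 of 17 settings. The region upstream of Gzma whose sequence is shown held 7 and 6.99 CPM in SKG iNKT1 and no insertion in SKG iNKT2. With 218 insertions against 0 it was at least 164-fold lower, set against a floor of 3 insertions over the SKG iNKT2 group. The weakest change was at the Gpx8 promoter (log2 difference -1.86 ± 0.27), below the 4-fold limit.

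The Gas7 introns were almost empty in SKG iNKT2. An intron region (chr11:67532185-67532506) held 4.05 and 5.13 CPM in SKG iNKT1 and no insertion in any SKG iNKT2 library. The 143 insertions against 0 made it at least 108-fold lower in SKG iNKT2.

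Stxbp4 showed the opposite pattern inside the gene. The region at an internal annotated start (chr11:90548580-90548908) held no insertion in SKG iNKT1 and 11.3, 19.2 and 18.7 CPM in SKG iNKT2. The 1077 insertions against 0 made it at least 159-fold higher. The region at the gene's 5′ end (chr11:90637665-90638919), which also covers the Cox11 start, did not pass the test: it held 57.5 and 49.9 CPM in SKG iNKT1 and 49.5, 55.8 and 57.9 CPM in SKG iNKT2 (log2 difference 0.02 ± 0.14, edgeR adjusted p 0.93). A region between Stxbp4 and Hlf (chr11:90463936-90464621) held 0 insertions against 1617 and was at least 239-fold higher, and Hlf itself differed less. The Hlf region 27233 bp upstream held 5.27 and 5.2 CPM in SKG iNKT1 and 22.9, 29.8 and 26.6 CPM in SKG iNKT2 (log2 difference 2.33 ± 0.19), and the region at the Hlf start held 7.97 and 8.47 CPM against 21.6, 22.1 and 20.9 CPM (1.39 ± 0.16, below the 4-fold limit).

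Gene lists gave the wider view, each list being described by its counts and set beside all regions, of which 10.2% were higher, 6.96% lower and the median log2 difference was 0.14. In the cytotoxic and NK list, 116 of 231 regions (50.2%) were lower and 4 higher, with a median log2 difference of -2.09. In the iNKT1 list 78 of 202 regions (38.6%) were lower and 6 higher, with a median of -1.42. In the iNKT2 list 71 of 230 (30.9%) were higher and 1 lower, with a median of 1.35. The other lists were closer to the background: type 2 genes had 44 of 325 higher and 22 lower, T lineage factors 76 of 681 higher and 33 lower, trafficking genes 20 of 279 higher and 42 lower, and T cell receptor response genes 22 of 387 higher and 23 lower. Quantile normalisation left fewer higher regions, 33 in the iNKT2 list, 25 in the type 2 list, 38 in the T lineage list, 9 in the trafficking list and 8 in the response list. Without SKG iNKT1 replicate 1 the trafficking list had 11 higher regions and the response list 12.

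**Figure D2:**
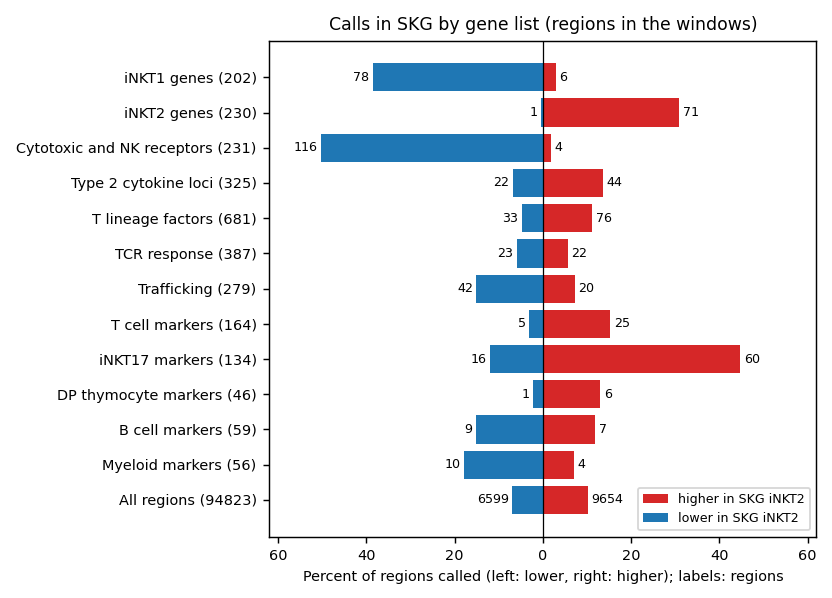
Percent of regions called higher (right) and lower (left) in SKG iNKT2 for each gene list, beside all 94823 regions; bar labels are numbers of regions. The cytotoxic and NK list has 50.2% lower and the iNKT2 list 30.9% higher, whereas the receptor response list has 5.68% higher and 5.94% lower.

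Within the cytotoxic list, the chemokine genes were closed as blocks in SKG iNKT2: 11 of 11 regions at Ccl3, 10 of 10 at Ccl4 and 11 of 12 at Ccl5 were lower. At Prf1, which encodes the pore-forming protein perforin, 10 of 14 were lower. Its strongest region lay in an intron of the neighbouring Adamts14 and held 7.71 and 6.42 CPM in SKG iNKT1 and 0.0297, 0 and 0.135 CPM in SKG iNKT2 (log2 difference -7.20 ± 0.45, edgeR adjusted p 1.9e-08). At Nkg7 9 of 21 were lower, at Gzmb, the granzyme B gene, 6 of 14, and at Eomes, which encodes a T-box factor of natural killer cells, none of 10 was called in either direction. A further Nkg7 region was higher, as were 2 at Xcl1 and 1 at Cd160.

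Among iNKT1 genes, Tbx21, which encodes T-bet, had 18 of 38 regions lower and Ifng 11 of 25. Il2rb, whose product was used in the sort, had 16 of 35 lower. The Ifng promoter (chr10:118440482-118441466) held 73.8 and 71.4 CPM in SKG iNKT1 and 9.96, 8.68 and 6.94 CPM in SKG iNKT2. It was lower in every SKG iNKT2 library but not closed, and the log2 difference was -3.07 ± 0.19 (edgeR adjusted p 1.6e-08). At Cxcr3, the receptor for interferon-induced chemokines, 12 of 15 regions were lower; the region upstream of it whose sequence is shown held 47.2 and 53.6 CPM against 4.96, 2.66 and 2.36 CPM (-3.86 ± 0.26), again without overlap. Fasl, the gene of the death ligand, had 6 lower and 1 higher of 29.

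Among iNKT2 genes, Zbtb16 had 26 of 124 regions higher and none lower, Il6ra, the IL-6 receptor gene, 19 of 40, Il17rb 15 of 21 and Ccr7, a chemokine receptor of lymphoid homing, 9 of 32 with 1 lower. The strongest Il6ra region held 0.578 and 0.385 CPM in SKG iNKT1 and 10.6, 6.06 and 9.03 CPM in SKG iNKT2 (log2 difference 4.14 ± 0.38). The strongest Ccr7 region held 0.450 and 0.449 CPM against 15.2, 10.3 and 12.9 CPM (4.82 ± 0.34). At both the groups were separate by many fold.

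Type 2 genes divided. Ccr4, a chemokine receptor of type 2 cells, had 14 of 36 regions higher and 1 lower, Icos, a costimulatory receptor gene, 11 of 50 higher and none lower, and Irf4 7 of 26 higher and 1 lower. Il4 itself had 6 of 39 higher and 2 lower, and the region with the smallest p there was lower: an Il4 intron held 47.8 and 44.4 CPM in SKG iNKT1 and 15.6, 8.40 and 6.41 CPM in SKG iNKT2 (log2 difference -2.15 ± 0.27, edgeR adjusted p 7.9e-06). Gata3 had 1 region lower of 30, an intron region at 18.4 and 18.3 CPM against 2.17, 1.29 and 0.674 CPM.

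The T lineage factors with most regions higher were Tox, Bach2, Myb, Runx1 and Lef1, with 14 of 48, 13 of 58, 8 of 20, 8 of 58 and 6 of 38, while Runx3, a factor of cytotoxic lymphocytes, had 12 of 43 lower and 1 higher. The strongest Tox region held 6.10 and 9.11 CPM in SKG iNKT1 and 45.3, 46.8 and 42.9 CPM in SKG iNKT2 (log2 difference 2.56 ± 0.18). In BALB/c Myb had 2 higher regions of these 20, and Bach2 had 12 higher and 5 lower of its 58.

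Receptor response genes showed no shared direction, and the sign of the list's median depends on scaling. Its median was -0.03 here and lay between -0.08 and 0.15 over the settings tried. An upstream region of Nr4a1, an immediate response gene, held 0.450 and 1.41 CPM in SKG iNKT1 and 15.2, 6.38 and 9.17 CPM in SKG iNKT2 (log2 difference 3.47 ± 0.43), whereas Spry2, an inhibitor of receptor kinase signalling, had 7 of 13 regions lower. Egr3, Nr4a2 and Rcan1 had no region called. Among trafficking genes, Itga1, which encodes an integrin chain of resident cells, had 20 of 34 lower and Klf2, a factor of egress, 7 of 24 lower, while Itgb7 had 6 of 29 higher.

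iNKT17 markers mostly moved with iNKT2 in both genotypes. Of 134 regions at 10 marker genes 60 were higher in SKG iNKT2 (44.8%) and 16 lower, beside 70 and 14 in BALB/c iNKT2. The median log2 difference in SKG was 1.82, and quantile normalisation left 39 higher. Of the 8 genes with a promoter region, 8 had a higher mean in SKG iNKT2. Tmem176a and Tmem176b have the same promoter region, which enters this count and the summed level below for each gene. The Il17a promoter held 0 and 0.0915 CPM per kb in SKG iNKT1 and 1.61, 2.03 and 3.75 CPM per kb in SKG iNKT2. BALB/c iNKT2 held more there, at 9.40, 13.9 and 12.3 CPM per kb. The Ccr6 promoter went the other way, at 6.95, 8.86 and 8.08 CPM per kb in SKG iNKT2 and 3.12, 3.17 and 1.93 CPM per kb in BALB/c iNKT2. The summed promoter level of the 8 genes was 28.6 and 28.2 CPM per kb in SKG iNKT1 and 78.0, 109.2 and 99.8 CPM per kb in SKG iNKT2. Il17a had 8 of 12 regions higher, Ccr6 8 of 15, and Il23r 7 of 25 with 9 lower. Downstream of Il17a (chr1:20740428-20740939, shown above) the region held 2.51 and 2.63 CPM in SKG iNKT1 and 14.9, 19.7 and 21.8 CPM in SKG iNKT2. In Tmem176a and Tmem176b, which share a promoter, 3 of 8 and 4 of 10 were lower. iNKT17 cells are typically CD27-, so the gate of both subsets is meant to leave them out, and their part in the results was not tested. Fewer cells of a kind and less accessibility in each cell cannot be told apart in bulk libraries.

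Markers of other cell types were mostly without a promoter region, and their part in the results was not tested. Of 59 regions at B cell genes 7 were higher (11.9%) and 9 lower (15.3%). Of 46 at genes of double-positive thymocytes 6 were higher (13.0%) and 1 lower (2.17%). Of 56 at myeloid genes 4 were higher (7.14%) and 10 lower (17.9%), and 7 of these 10 lay at Itgam, which had 8 regions. Over all regions 10.2% were higher and 6.96% lower. Of the 6 B cell genes Ebf1 alone had a promoter region, which held 6 and 6.76 CPM per kb in SKG iNKT1 and 7.25, 7.61 and 6.09 CPM per kb in SKG iNKT2. Of the 7 genes of double-positive thymocytes, Cd8a held a promoter region, at 6.42 and 4.06 CPM per kb in SKG iNKT1 and 1.39, 0.459 and 0.674 CPM per kb in SKG iNKT2. Of 6 myeloid genes 4 held one, with sums of 50.8 and 59.4 CPM per kb in SKG iNKT1 and 40.8, 41.0 and 34.1 CPM per kb in SKG iNKT2. The T cell genes Cd3d, Cd3e and Cd3g had 0, 1 and 0 regions higher and 1, 2 and 1 lower, and Cd247 15 of 58 higher.

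Most regions that parted the subsets in SKG also did so in BALB/c, and both contrasts were fitted with the same rule. In BALB/c 15.5% of all regions were called higher in iNKT2 and 6.36% lower. Of the 9654 regions higher in SKG iNKT2, 7255 (75.2%) were also called higher in BALB/c iNKT2, with a median log2 difference of 3.31 in SKG and 3.51 in BALB/c. Of the 6599 lower regions, 4585 (69.5%) were lower in BALB/c too, with medians of -3.34 and -3.09. In SKG alone 2399 were called higher and 2010 lower. Of these, 96.9% and 96.1% had the same sign in BALB/c, where their medians were 1.44 and -1.49 against 2.47 and -2.45 in SKG. Over all regions 83.5% had the same sign in both genotypes.

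**Figure D3:**
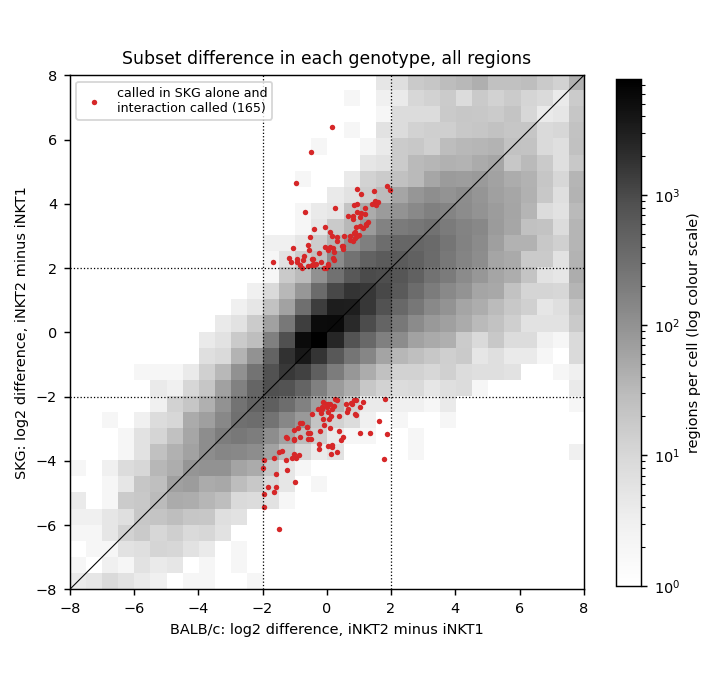
Log2 difference of iNKT2 against iNKT1 in BALB/c (horizontal) and in SKG (vertical) over all 94823 regions, as a 2D histogram with values beyond 8 drawn at the edge; red points are the 165 regions called in SKG alone whose interaction was called. The regions lie along the diagonal, and the red points lie off it, at 2 or more in absolute log2 difference in SKG.

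A call in SKG alone is not a difference between genotypes, which was tested by the interaction, the SKG subset difference minus the BALB/c one. It was called at 0.529% of regions, more positive in SKG at 179 (0.189%) and more negative at 323 (0.341%). Of the regions called in SKG alone, 81 higher and 84 lower ones passed, and 59 and 55 of these differed by less than 2-fold in BALB/c. Both counts depend on single libraries: leaving out 1 library at a time gave 11 to 294 regions more positive and 31 to 673 more negative, with 11 and 53 when SKG iNKT1 replicate 1 was left out and 214 and 673 without SKG iNKT2 replicate 1. With the replicate number as a block in the model they were 283 and 518. The 81 higher regions lay nearest to 71 genes, 8 at promoters, 26 in introns and 43 between genes. Their median group mean was 1.19 CPM in SKG iNKT1, 3.77 in BALB/c iNKT1, 5.63 in BALB/c iNKT2 and 9.81 in SKG iNKT2, and SKG iNKT1 had the lowest of the 4 means at 77 of them. The 84 lower regions lay nearest to 76 genes, with medians of 5.92 CPM in SKG iNKT1, 3.68 in BALB/c iNKT1, 2.92 in BALB/c iNKT2 and 0.717 in SKG iNKT2, which had the lowest mean at 80. The rule chose these regions by the same values, so the medians are a description.

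The 5 regions of each direction with the smallest interaction p, called in SKG and under 2-fold in BALB/c, were read in every library. A region 73009 bp upstream of Nrn1, which encodes neuritin (chr13:36807961-36808319), held 4.56 and 6.35 CPM in SKG iNKT1, 38.1, 38.3 and 44.1 CPM in SKG iNKT2, 23.8 and 21.7 CPM in BALB/c iNKT1 and 39.6, 37.4 and 35.6 CPM in BALB/c iNKT2. The SKG iNKT1 libraries were low, and the other 3 groups were higher; the log2 difference was 2.88 ± 0.17 in SKG, and the interaction 2.16 ± 0.22 (edgeR adjusted p 0.00038). A region 456329 bp from Rnf144a, a ubiquitin ligase gene, showed the same, with 6.04 and 6.61 CPM in SKG iNKT1 and 38.9, 27.9 and 40.5 CPM in SKG iNKT2, beside 38.1 and 36.9 CPM in BALB/c iNKT1 and 37.8 to 48.3 CPM in BALB/c iNKT2 (interaction 2.27 ± 0.25). At an intron of Rad51b, a recombination gene, the values were 2.31 and 2.44 CPM in SKG iNKT1, 26.9 to 37.9 CPM in SKG iNKT2, 9.59 and 10.4 CPM in BALB/c iNKT1 and 15.4 to 24.7 CPM in BALB/c iNKT2 (interaction 2.83 ± 0.32). An intron of Gm1043 held 0 and 0.257 CPM in SKG iNKT1 and 2.64, 3.17 and 4.32 CPM in SKG iNKT2, below the 9.61 to 11.1 CPM of BALB/c iNKT1.

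Among those lower in SKG iNKT2, the region upstream of Arg1, the arginase gene (chr10:24953940-24954257), held 16.4 and 17.1 CPM in SKG iNKT1 and 2.73, 3.81 and 3.03 CPM in SKG iNKT2. In BALB/c the order was turned, with 7.94 and 9.70 CPM in iNKT1 and 15.2, 13.1 and 13.6 CPM in iNKT2. The log2 difference was -2.40 ± 0.19 in SKG and 0.67 in BALB/c, and the interaction -3.06 ± 0.27 (edgeR adjusted p 0.00021) held in 17 of 17 alternative settings. A Hivep3 intron held 11.4 and 12.9 CPM in SKG iNKT1 and 1.49, 0.505 and 0.742 CPM in SKG iNKT2, with 7.13 to 11.2 CPM in the 5 BALB/c libraries (interaction -3.40 ± 0.42). At Msh4 an intron held 17 and 18 CPM against 2.38, 3.03 and 1.55 CPM, with 5.44 to 7.75 CPM in BALB/c (interaction -2.81 ± 0.33). A region near L3mbtl3 held 6.68 and 5.90 CPM against 1.63, 1.19 and 1.21 CPM (interaction -2.96 ± 0.37), and one near Gm10184 2.57 and 2.63 CPM against 0.149, 0.276 and 0.135 CPM (-3.91 ± 0.44).

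**Figure D4:**
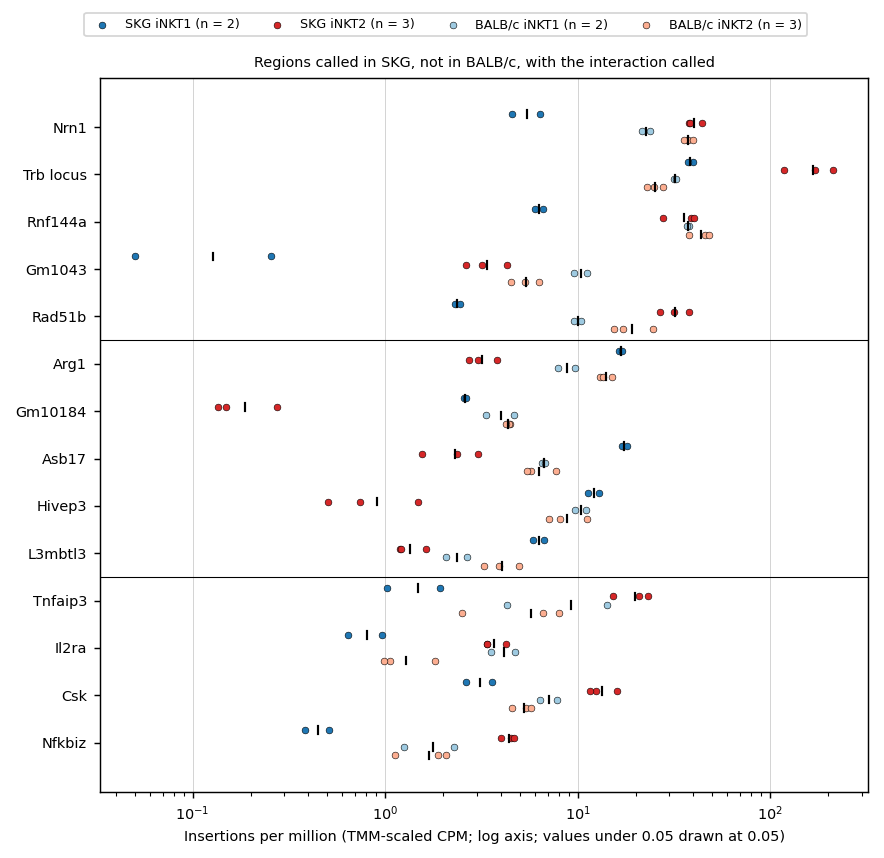
CPM per library (log axis, values under 0.05 drawn at 0.05, black ticks are group means) in all 4 groups for regions called in SKG and not in BALB/c with the interaction called: the 10 with the smallest interaction p and the regions at Tnfaip3, Il2ra, Csk and Nfkbiz. SKG iNKT1 and SKG iNKT2 do not overlap at any of the regions, as at 9654 of 9654 regions called higher in SKG iNKT2 and 6598 of 6599 called lower. At Arg1 the BALB/c groups have the opposite order.

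Some regions at genes of receptor and NF-kB signalling were looked at after their values were seen. At Tnfaip3, which encodes A20, an inhibitor of NF-kB signalling, 14 of 32 regions were higher in SKG iNKT2 and 2 in BALB/c iNKT2, and 6 had a more positive interaction. Its strongest region (chr10:19002866-19004077) held 1.93 and 1.03 CPM in SKG iNKT1 and 23.1, 15.3 and 20.8 CPM in SKG iNKT2, beside 4.30 and 14.1 CPM in BALB/c iNKT1 and 2.51, 7.96 and 6.64 CPM in BALB/c iNKT2. The BALB/c iNKT1 libraries were far apart, and the interaction of 4.41 ± 0.71 (edgeR adjusted p 0.0037) was called in 10 of 17 settings. At Il2ra, the CD25 gene, a region held 0.964 and 0.642 CPM in SKG iNKT1 and 3.39, 3.40 and 4.25 CPM in SKG iNKT2. In BALB/c it was higher in iNKT1, at 3.55 and 4.72 CPM against 1.82, 1.06 and 0.989 CPM in iNKT2 (interaction 3.84 ± 0.47). At Csk, a kinase that restrains Lck, an intron held 2.63 and 3.59 CPM against 16.1, 12.5 and 11.7 CPM (interaction 2.54 ± 0.31). At Nfkbiz the values were 0.385 and 0.513 CPM against 4.52, 4 and 4.65 CPM (3.32 ± 0.54). These regions were taken among those called in SKG alone with an interaction of the same sign, so their direction follows from the choice. Of 23 regions at Nfkbiz 4 were higher in SKG iNKT2 and 6 in BALB/c iNKT2, with 1 interaction more positive and 1 more negative. Csk had 3 of 23 higher and 3 lower in SKG iNKT2, and Il2ra 4 of 25 higher, beside 10.2% higher and 6.96% lower over all regions.

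A few other such regions fell on both sides. A Klf6 region was lower, at 26.9 and 26.4 CPM in SKG iNKT1 and 2.02, 1.65 and 1.28 CPM in SKG iNKT2, with 4.63 to 7.75 CPM in BALB/c iNKT2 (interaction -2.69 ± 0.32). At Ptprj, a receptor phosphatase gene, 10 of 33 regions were lower in SKG iNKT2, whereas in BALB/c iNKT2 none was lower and 5 were higher. A Ptprj intron held 8.09 and 6.8 CPM against 1.04, 1.06 and 0.607 CPM. Among list genes, the Ets1 intron whose sequence is shown held 3.6 and 4.68 CPM in SKG iNKT1 and 29.95, 23.1 and 27.0 CPM in SKG iNKT2 (interaction 2.19, called in 11 of 17 settings). Of the 81 higher regions 7 held the NF-kB letters (8.64%), beside 3.38% of the 2399 regions called higher in SKG alone. The share was 1.65% of the regions higher in SKG iNKT2 and 0.639% of all regions, and none of the 84 lower regions held these letters. NF-kB was 1 of 12 motifs searched, and the other letters with a raised share in the 81 regions included NFAT, at 35.8% against 23.4% of all regions and 32.1% of the 84 lower regions.

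The motif letters divided the called regions at large. T-box letters were in 7.74% of the regions lower in SKG iNKT2 and 0.880% of those higher, and ETS letters in 17.2% and 8.19%. RUNX letters were in 23.9% and 15.1%, both above the 13.2% of all regions. TCF/LEF letters were in 4.79% of lower regions and 11.2% of higher ones, and NF-kB letters in 0.273% and 1.65%. Other letters differed less, such as AP-1 (14.1% of lower and 12.4% of higher regions), ROR (21.4% and 18.9%) and NFAT (21.2% and 26.3%). These shares are descriptions of the regions, which the calls chose.

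Between the genotypes 4 regions crossed, being called lower in SKG iNKT2 and higher in BALB/c iNKT2, and none went the other way. They lay at Olfm3 (promoter), Pcdh18, Ccdc15 and far from Trib2, and were named after their values were seen. All had few insertions in SKG: 35 over SKG iNKT1 and 8 over SKG iNKT2 at Olfm3, and 12 against 1 at Ccdc15. The interactions were -6.27 ± 0.87, -6.53 ± 0.81, -7.70 ± 1.31 and -4.59 ± 0.85. That none went the other way depended on the setting. Quantile normalisation gave 5 crossing regions of this kind and 3 of the other, and subtracting the floor 11 and 3. An adjusted p under 0.05 with 2-fold gave 89 and 53.

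The T cell receptor beta locus (Trb, chr6:40891229-41558452) held 7 of the 179 regions with a more positive interaction, and it was described after its values were seen. Of its 72 regions 10 were higher and 3 lower in SKG iNKT2, beside 4 and 3 in BALB/c, and the median log2 difference was 0.66 in SKG and 0.08 in BALB/c. Over all regions 10.2% were higher and 6.96% lower in SKG iNKT2, and 0.189% had a more positive interaction. Several of the 7 were neighbours, from chr6:41118217 to chr6:41120885. Some of the 7 were under 4-fold in SKG and so were not called there. A region 268 bp from the Trbv12-2 segment (chr6:41118217-41118950) held 39.7 and 37.3 CPM in SKG iNKT1 and 118, 214 and 171 CPM in SKG iNKT2, with 31.7 and 32.5 CPM in BALB/c iNKT1 and 23.1, 24.9 and 27.8 CPM in BALB/c iNKT2. All 3 SKG iNKT2 libraries were high and spread widely, and the other 7 libraries were low. The log2 difference was 2.12 ± 0.20 (edgeR adjusted p 5.8e-07) in SKG and -0.35 in BALB/c, and the interaction of 2.47 ± 0.27 was called in 17 of 17 settings, although the SKG call was lost without SKG iNKT2 replicate 2. A region near the end of the locus (chr6:41553327-41555403) held 172 and 200.1 CPM against 369.6, 737 and 658 CPM (1.66 ± 0.22). At the alpha locus 4 of 61 regions were higher and 1 lower, at the gamma locus 1 of 19 was higher, and at the immunoglobulin heavy chain locus 22 of 111 were lower, as 24 were in BALB/c. None of these had an interaction called.

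**Figure D5:**
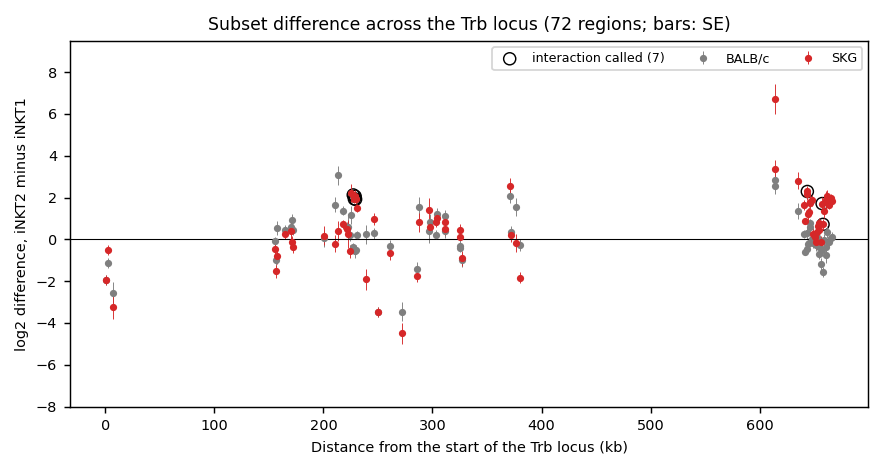
Log2 difference of iNKT2 against iNKT1 (points, with SE bars) over the 72 regions of the Trb locus, by kb from the locus start, in SKG and in BALB/c; the 7 regions with the interaction called are circled. The circled regions have SKG differences of 0.71 to 2.29 while those of BALB/c are below 0.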

How the data were processed

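Libraries were grouped by their labels. The authors trimmed reads, kept unique mm10 alignments (Bowtie), removed duplicates and mitochondrial reads, called peaks in each replicate with MACS2, merged them and deposited raw insertion counts per region, although the deposited table is described as normalized. Regions ran from 300 to 7709 bp in GRCm38 coordinates. Here counts were fitted with edgeR 4.0.16 in R 4.3.3 (TMM, quasi-likelihood, a mean for each of the 4 groups over all 10 libraries), with Benjamini-Hochberg adjustment over all regions. The study's own thresholds were used, an adjusted p under 0.01 and 4-fold, though its model was voom with limma. Alternatives used limma 3.58.1 and DESeq2 1.42.0. The fit was tested on simulated data. Genes came from GENCODE M21, and sequence windows from the GRCm38 genome.

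Named regions were first the 8 called ones per direction with the smallest adjusted p whose SKG groups did not overlap (1 per nearest start). To these came the best region at the 8 genes per direction with most calls. The 5 per direction called in SKG but under 2-fold in BALB/c were taken by interaction p. The best region of each list gene and every region at Gzma, Gas7, Hlf and Stxbp4 were also named. Members and lists were chosen with earlier results of these data known. Same-numbered SKG libraries did not deviate together (correlations 0.00345 and -0.0162), so numbers were not treated as pairs in this comparison; same-numbered iNKT2 libraries of the 2 genotypes did (0.455, 0.142 and 0.166), so blocked counts stand beside the interaction. Intervals and floors cover counting error only.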

Additional observations from a re-analysis of the deposited data

Results flagged for a closer look

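The subset difference itself differed between the genotypes, by the interaction test over all regions, at 179 regions in the positive direction and 323 in the negative. The values below are its log2 size at the regions named in the text.

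More positive in SKG were the regions at Specc1l (2.35), Nrn1 (2.16), the Trb locus (2.47, nearest to 2210010C04Rik), Rnf144a (2.27), Gm1043 (5.59), Rad51b (2.83), Etv6 (2.34), Ets1 (2.19) and Ctla4 (2.08). The Etv6 and Ctla4 values were called in 4 and 6 of 17 settings. The 4 regions at Tnfaip3 had 4.41, 3.31, 3.07 and 3.21, called in 10, 5, 5 and 6 settings. Further regions were Il2ra (3.84), Csk (2.54), Nfkbiz (3.32), Fasl (2.11) and the Cd83 promoter (2.09), called in 15, 15, 10, 13 and 8 settings. Ets1 was called in 11, Specc1l in 12, and the others named above in 14 to 17.

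More negative in SKG were Gm11114 (-2.21), Arg1 (-3.06), Gm10184 (-3.91), the Msh4 intron nearest to Asb17 (-2.81), Hivep3 (-3.40), L3mbtl3 (-2.96), Klrb1c (-3.00), Sdc1 (-2.24), the Gzma promoter (-2.04), the region nearest to Klf6 but outside its window (-2.69) and Ptprj (-2.09). Klrb1c, Sdc1, the Gzma promoter and Ptprj were called in 11, 9, 10 and 11 of 17 settings, and the others of these in 15 to 17. The 4 regions with opposite calls had -4.59 (Trib2), -6.53 (Pcdh18), -6.27 (Olfm3) and -7.70 (Ccdc15), with the interaction called in 5, 15, 10 and 6 settings and the SKG call kept in 8, 18, 15 and 10.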

How the results depend on the processing

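None of the 172 named regions called between the SKG subsets changed sign in any setting, whereas 3 of the 34 not called did, and of 206 named values 193 to 206 kept their call when 1 library was left out. Regions called higher in SKG iNKT2 were fewest with quantile normalisation among the planned settings (4244, of which 2988 were shared with BALB/c), while the lower calls rose to 7011, 5733 of them shared. Voom alone gave 6128 higher (4573 shared) and 6497 lower. Dropping the regions below the lower quartile of counts left 4385 lower and 2885 shared lower regions, in part because fewer were tested. Adjusted p under 0.05 with 2-fold gave 20480 higher, 14241 lower, 15894 shared higher and 11046 shared lower. Leaving 1 library out gave 6763 to 9776 higher, 6176 to 7568 lower, 5067 to 7454 shared higher and 4077 to 4994 shared lower.

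The interaction counts, 179 more positive and 323 more negative, moved most. With the floor of each library subtracted they were 187 and 241. They were 85 positive with library totals, 96 and 148 with quantile normalisation, 83 and 144 with voom, 302 and 1090 with DESeq2, 113 positive with the quartile filter, 8 and 24 when tested against 2-fold, and 1506 and 1988 at 0.05 with 2-fold. With the replicate number as a block they were 283 and 518; same-numbered iNKT2 libraries of the 2 genotypes deviated together (correlations 0.455, 0.142 and 0.166), but BALB/c iNKT2 replicates 2 and 3 each correlated best with the other number in SKG iNKT2, and the other same-numbered pairs correlated by at most 0.107. The block left 9642 regions higher and 6430 lower. When single libraries were dropped the positive count ran from 11 to 294 and the negative count from 31 to 673. For BALB/c iNKT1, dropping replicate 1 gave 58 positive and 57 negative, and replicate 2 gave 22 and 31. For BALB/c iNKT2, dropping replicates 1, 2 and 3 in turn gave 294 and 433, then 89 and 189, then 64 and 162. For SKG iNKT1, dropping replicate 1 gave 11 and 53, and replicate 2 gave 47 and 46. For SKG iNKT2, dropping replicate 1 gave 214 and 673, and replicate 3 gave 105 and 187. The regions called in SKG alone with an interaction, 81 and 84, were 5 and 5 against 2-fold, 7 and 3 when BALB/c iNKT1 replicate 2 was dropped, and 128 and 216 with DESeq2. The causes were not tested. With 2 iNKT1 libraries per genotype, an exact permutation test of a single region cannot go below p = 0.1.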
